A study of Mus musculus with 13 samples.

Results

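Within the 10 xHomo embryos of this series, 4 held at least 1 log2 unit more Grb10 mRNA than the mean of the 3 xHet embryos, and these 4, selected on that single measured value, were set against the remaining 6. The high group consists of the embryos numbered 2, 4, 6 and 9, and the other group of those numbered 1, 3, 5, 7, 8 and 10, out of 13 embryos in all. Each was a C57BL/6J embryo taken at E9.5, day 9.5 of gestation, with no treatment in the labels, and its polyadenylated RNA was sequenced. The labels call the genotypes xHet and xHomo and do not spell them out. Tet1, whose product oxidizes methylated cytosine in DNA, is the subject of the series, and as far as the study is known the names refer to the father, which carried a Tet1 mutation on 1 or both copies. Both groups compared here therefore carry the same genotype label, and a split by Grb10 is a split by a measured value, not by a genotype or a treatment. The labels name neither litters nor sex, so p-values here cover only how much these embryos varied.

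Grb10 encodes an adaptor protein that binds the activated insulin and insulin-like growth factor 1 receptors and dampens their signal, and it is itself a substrate of the kinase mTOR. In the mouse it is known as an imprinted restraint on growth: most embryonic tissues use the maternal copy from an upstream promoter, while neurons use the paternal copy from separate start sites. The choice between copies depends on DNA methylation of a control region within the gene.

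The deposited table lists Grb10 with 2 start sites and gives a single level for the gene, so the contribution of either start site, or of either parental copy, was not measured. The 2 RefSeq start regions of Grb10 are shown for their sequence. Whether they are the 2 start sites listed, or which parental copy uses them, was not examined. Both are on the minus strand of GRCm38.p6, run from 250 bases before to 50 bases after the start, and have CG dinucleotides in capitals.
Grb10 upstream start region, chr11:12037371-12037670: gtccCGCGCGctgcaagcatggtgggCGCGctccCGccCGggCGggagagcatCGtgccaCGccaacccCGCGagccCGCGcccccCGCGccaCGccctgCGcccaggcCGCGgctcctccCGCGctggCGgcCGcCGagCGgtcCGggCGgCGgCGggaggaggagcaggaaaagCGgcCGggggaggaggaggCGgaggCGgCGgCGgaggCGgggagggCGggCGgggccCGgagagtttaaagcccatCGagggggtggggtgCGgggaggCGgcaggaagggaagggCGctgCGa
Grb10 downstream start region, chr11:12027922-12028221: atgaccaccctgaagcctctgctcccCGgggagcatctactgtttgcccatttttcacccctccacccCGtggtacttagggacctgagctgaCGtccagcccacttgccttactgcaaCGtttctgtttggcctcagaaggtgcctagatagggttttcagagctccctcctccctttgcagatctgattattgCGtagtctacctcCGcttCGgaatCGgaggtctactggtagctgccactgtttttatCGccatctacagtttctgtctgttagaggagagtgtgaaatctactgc
The upstream region held 45 CG dinucleotides, a number reached by 1.93% of 32851 start regions of the same 300 bases, and the downstream region held 9, reached by 45.8% (median 7). CG reads the same on both strands. These are descriptions of the sequence, and no methylation was measured here.

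The values that chose the groups are given first, without a test. Levels are in FPKM, a count of fragments that is divided by transcript length and by library size. Grb10 (mm9 chromosome 11, 11830502 to 11937423) stood at 436, 527, 576 and 500.2 FPKM in xHomo embryos 2, 4, 6 and 9. It stood at 217, 370, 298, 244, 260 and 254 FPKM in xHomo embryos 1, 3, 5, 7, 8 and 10, and at 209, 212 and 220.4 FPKM in xHet embryos 1 to 3. The high embryos were thus 2.04 to 2.69 times the xHet mean, the others 1.02 to 1.73 times. Just inside the threshold lay embryo 2, at 1.02 log2 units above the xHet mean, and just outside it embryo 3, at 0.79, which is 66.2 FPKM less. Means were 510 ± 58.3 FPKM (SD, n = 4) and 274 ± 53.8 FPKM (SD, n = 6), a ratio of 1.86. On the log2 scale of FPKM plus 1 used throughout, the groups lay 0.91 apart. The xHet embryos differed little among themselves, whereas the other xHomo embryos spanned 217 to 370 FPKM. Embryo 3, the highest of these, lay nearer to embryo 2 of the high group than to embryo 5, the next of its own group. The high mean was 2.38 times and the other mean 1.28 times the xHet mean. The term doubled thus refers to the xHet mean that the threshold uses.

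**Figure D1:**
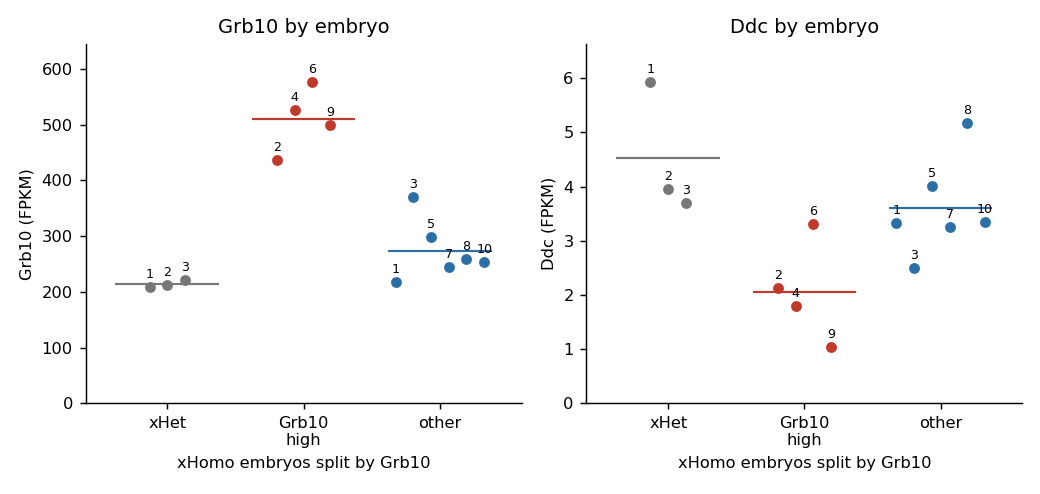
Grb10 and its neighbour Ddc in FPKM (vertical axes) for 3 xHet, 4 Grb10-high and 6 other xHomo embryos; points are embryos with their label numbers and lines are group means. Grb10 set the groups, with 436 FPKM as the lowest high embryo and 370 FPKM as the highest of the others, while Ddc values of the groups overlap.

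Libraries differed in ways that touch the comparison. Embryo 3 of the other group stood apart, with 9.93% of the autosomal genes tested departing from the xHet mean by 1 log2 unit or more. Embryo 9 of the high group came next with 4.30%, and the remaining xHomo embryos had 1.16% to 2.03%. Xist, a noncoding RNA made from the silenced X chromosome, was over 1 FPKM in embryos 2 and 9 of the high group and 3, 7 and 10 of the others, where the Y-linked Ddx3y and Eif2s3y were at or near 0, so both groups hold embryos of either kind, while all 3 xHet embryos had Xist under 1 FPKM. Summed FPKM was 522093.9 to 654212.1 in the high and 500126 to 662935.6 in the other group. Read depth is unknown. Markers of trophoblast, decidua and macrophages, cells that dissection could carry along, were summed to 19.3 to 22.1, 174 to 230 and 6.2 to 11.6 FPKM in the high group and to 16.3 to 24.1, 101 to 229 and 4.86 to 12.2 FPKM in the others. Among 13 trophoblast markers Tpbpa and Ctsq, and among 8 decidual markers Prl3c1 and Prl8a9, were listed at 0 in all 13 embryos. Of the 12 macrophage markers Ptprc did not exceed 0.3 FPKM. A mean of at least 1 FPKM over the xHomo embryos was reached by 4 trophoblast, 4 decidual and 1 macrophage markers. Whether the embryo itself made these RNAs was not tested, so the sums are not a measure of cells carried along.

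The question asked of all other genes was whether any differed between the embryos with high and with lower Grb10. None did by the test used: of 12268 autosomal genes 0 passed in either direction (0% in each) in limma with Benjamini-Hochberg adjustment, where the lowest adjusted p was 0.946. An unadjusted p under 0.05 was found for 91 higher genes (0.742%) and 125 lower genes (1.02%), together 1.76% of genes. Where no gene differs, about 5% are expected at that limit, so these genes are no excess. Groups did not overlap for 31 genes above (0.253%) and 25 below (0.204%). The median 95% interval reached 0.33 log2 units to either side, and for 96.3% of genes the interval lay within 1 log2 unit of 0, taken gene by gene. On this scale a doubling of FPKM comes to less than 1 unit, and to far less for low genes, so these intervals do not exclude a doubling for every gene. The difference was above 0 for 63.4% of genes with a median of 0.05 log2 units, and without embryo 3 it was above 0 for 5830 genes and below 0 for 6433, with a median of -0.01.

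The same was asked with the xHet embryos as the reference. Among 12028 autosomal genes other than small RNA genes, 0 departed by 1 log2 unit or more in 1 direction in all 4 high embryos. Grb10 was left out of this count, as the gene that chose them.

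**Figure D2:**
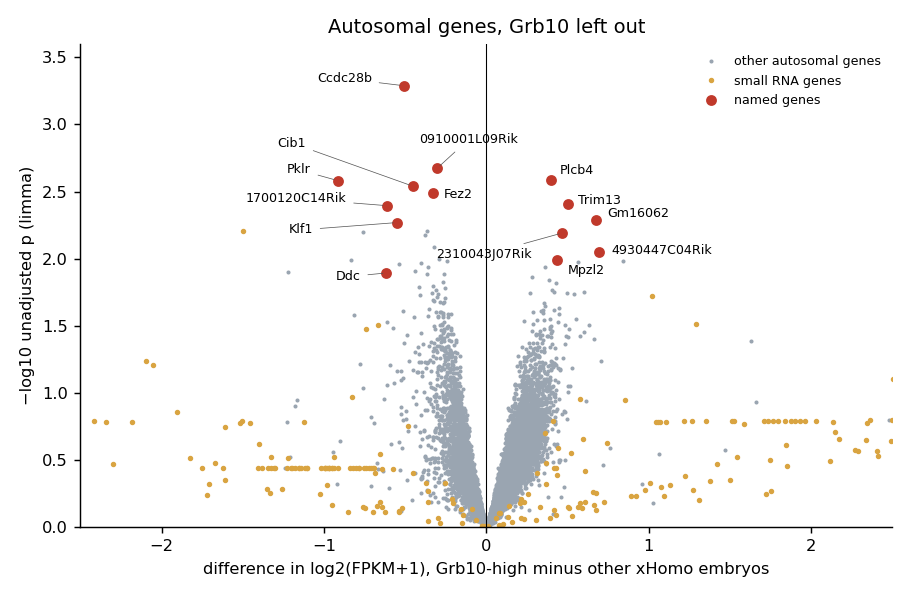
Difference in log2(FPKM+1) between Grb10-high and other xHomo embryos (horizontal axis) against −log10 of the unadjusted limma p (vertical axis) for autosomal genes, Grb10 left out; gold points are small RNA genes and red points are the labelled genes, described in the text. No gene passed after adjustment; 33 genes lie beyond 2.5 log2 units and are not drawn, 32 of them small RNA genes.

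The genes closest to a call were small in change and low or moderate in level, and none of them is called. Ccdc28b, which encodes a coiled-coil protein linked to cilia (chromosome 4, 129296518 to 129301152), had the smallest p. It stood at 7.14, 8.75, 9.32 and 7.38 FPKM in embryos 2, 4, 6 and 9, and at 13.39, 11.38, 10.89, 13.34, 12.02 and 10.97 FPKM in embryos 1, 3, 5, 7, 8 and 10. The groups did not overlap, and the xHet embryos, at 6.69 to 8.67 FPKM, lay with the high group (log2 difference -0.51, SE 0.11, limma adjusted p = 0.946). The transcript 0910001L09Rik showed the same arrangement more tightly, at 11.9 ± 0.231 FPKM (SD, n = 4) in the high group, 14.9 ± 0.671 FPKM (SD, n = 6) in the others and 10.9 to 11.4 FPKM in xHet embryos. Fez2, a relative of a protein of axon bundling, stood at 7.88 to 9.13 FPKM in the high group and 10.2 to 12.2 FPKM in the others. The xHet embryos spanned 8.66 to 11.2 FPKM of Fez2, across both groups.

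Pklr, which encodes the pyruvate kinase of liver and red blood cells (chromosome 3, 88940064 to 88950516), had the largest difference of these genes. It stood at 4.59, 2.32, 2.56 and 2.47 FPKM in embryos 2, 4, 6 and 9, and at 10.2, 3.44, 5.51, 7.78, 6.28 and 6.58 FPKM in embryos 1, 3, 5, 7, 8 and 10 (log2 difference -0.92, SE 0.24, limma adjusted p = 0.946). Only embryo 2 among the high ones overlapped the others, through embryo 3. In a fit with Grb10 as a continuous value in place of the groups, Pklr was the single gene that passed (slope -1.13 per log2 unit of Grb10, limma adjusted p = 0.0414). That fit is 1 of 28 alternatives, and Pklr passed in none of the others. Cib1, a calcium-binding partner of integrins, stood at 13.7 to 18.9 FPKM in the high group and 18.3 to 24.8 FPKM in the others, and 1700120C14Rik at 0.38 to 1.28 and 1.57 to 2.63 FPKM.

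On the higher side Plcb4, a phospholipase C that acts downstream of G proteins (chromosome 2, 135567566 to 135838804), stood at 2.31, 2.53, 2.71 and 2.83 FPKM in embryos 2, 4, 6 and 9. The other group spanned 1.45 to 1.90 FPKM and the xHet embryos 1.99 to 2.12 FPKM, so the 3 groups did not overlap, with xHet in the middle (log2 difference 0.40, SE 0.10, limma adjusted p = 0.946). Trim13, a ubiquitin ligase of the endoplasmic reticulum, stood at 4.72 to 7.34 FPKM in the high group against 3.01 to 4.37 FPKM, with xHet embryos at 4.71 to 5.65 FPKM. Mpzl2, a cell adhesion protein, stood at 3.31 to 4.22 FPKM against 1.65 to 3.29 FPKM. The unnamed transcripts Gm16062, 2310043J07Rik and 4930447C04Rik completed this set, with ratios of group means of 1.94, 1.79 and 1.94, and the groups overlapped only for 4930447C04Rik.

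Where these genes lay relative to the xHet embryos was counted as a description. Of the 125 genes lower at an unadjusted p under 0.05, the high mean was nearer the xHet mean for 108 (86.4%), as for 52 of the 91 higher ones (57.1%) and for 58.6% of all autosomal genes tested. Among these 125 lower genes it was thus mostly the other group that stood away from xHet. They were picked by p from the same embryos, so the count describes them and tests nothing. Without embryo 3, 237 genes were lower at that p.

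**Figure D3:**
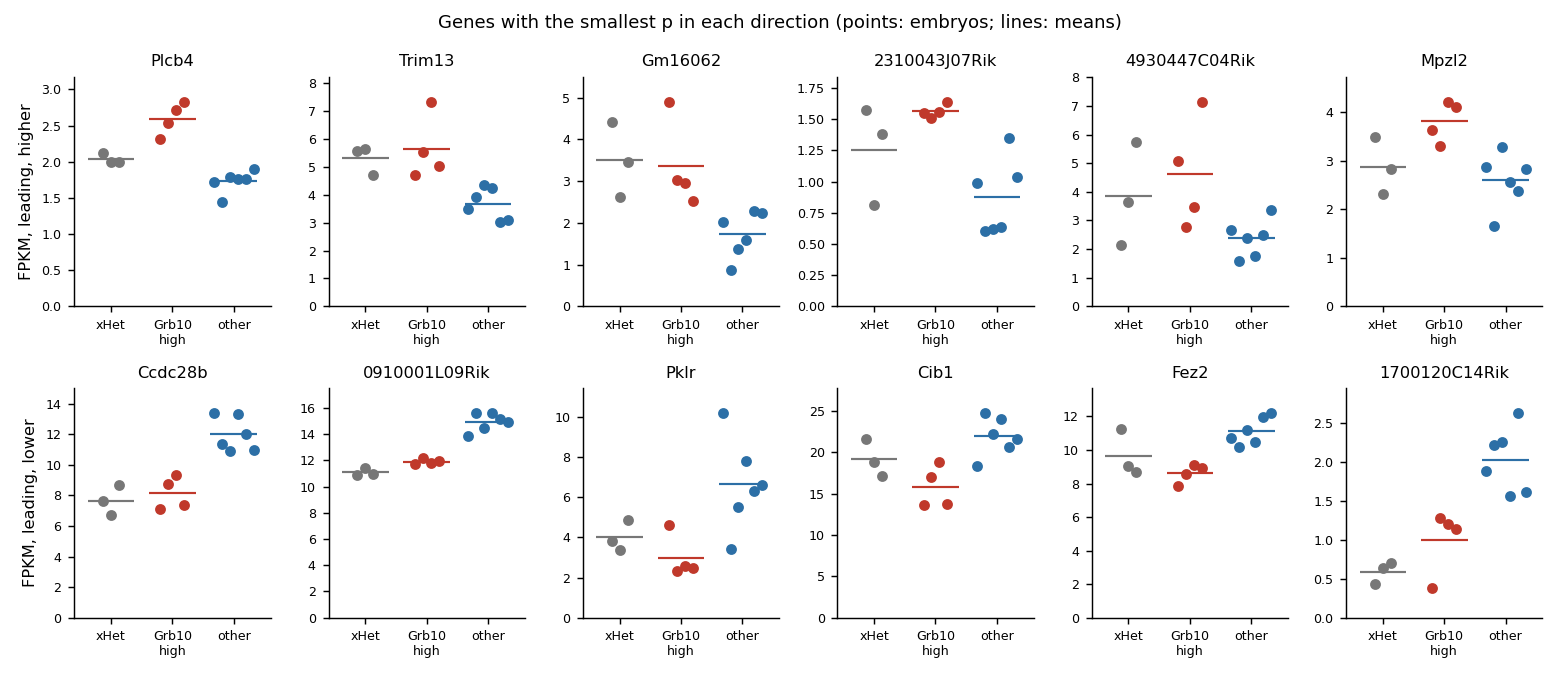
FPKM (vertical axes) of the 6 genes with the smallest p in each direction, in 3 xHet, 4 Grb10-high and 6 other xHomo embryos; points are embryos and lines group means. Each gene had a limma adjusted p of 0.946; Ccdc28b and 0910001L09Rik show xHet and high embryos at like levels below the others.

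Genes around Grb10 were described next, all 8 others within 1 Mb whatever their level. Ddc, the gene beside Grb10, encodes the decarboxylase that makes dopamine and serotonin (chromosome 11, 11714104 to 11798147) and has a heart transcript known to be imprinted. It stood at 2.12, 1.79, 3.30 and 1.04 FPKM in embryos 2, 4, 6 and 9, and at 3.33, 2.49, 4.01, 3.25, 5.17 and 3.35 FPKM in embryos 1, 3, 5, 7, 8 and 10. The xHet embryos were at 5.92, 3.96 and 3.70 FPKM, above every high embryo. The log2 difference between the high and other groups was -0.62 (SE 0.21, 95% interval -1.07 to -0.16, limma adjusted p = 0.946). Embryo 6, with the most Grb10 of all, had the most Ddc of its group and overlapped the others. The table gives Ddc the same locus as the transcript 1700042O10Rik, listed at 0 to 0.84 FPKM in xHomo embryos, so fragments of the pair may be shared.

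Fignl1, a gene of DNA repair on the far side of Ddc, stood at 33.5 to 47.8 FPKM in the high and 33.5 to 53.04 FPKM in the other group (log2 difference -0.03, 95% interval -0.33 to 0.26). Ikzf1, the lymphoid factor Ikaros, was below the filter of a mean of 1 FPKM, at 0.66 to 0.81 and 0.74 to 1.29 FPKM. Cobl, an actin nucleator on the other side of Grb10, stood at 0.67 to 1.01 FPKM against 0.59 to 0.81 FPKM, also below the filter. The remaining 3 genes, Vwc2, Zpbp and 4930415F15Rik, did not exceed 1.14 FPKM in any xHomo embryo.

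The pathway that Grb10 acts on was examined with 30 genes from the receptors to mTOR and the Foxo factors, all of which passed the filter on low values. None passed the test and 0 had an unadjusted p under 0.05 in limma, where 1.76% of all autosomal genes did. At that share a count of 0 among 30 says little about the pathway. The differences ran from -0.15 to 0.31 log2 units with a median of 0.10, against 0.05 over all autosomal genes, and 21 were above and 9 below 0 (70.0% above, against 63.4%). In 30 of 30 the 95% interval lay within 1 log2 unit of 0, as for 96.3% of all genes. Without embryo 3 the median was 0.03, and with embryo 3 counted as high, at a Grb10 threshold of 0.75, it was -0.08.

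The receptors themselves, chosen for their role and with values in view, show how much embryo 3 enters. Insr, the insulin receptor, stood at 8.37, 9.30, 8.30 and 11.6 FPKM in embryos 2, 4, 6 and 9, and at 7.98 to 9.17 FPKM in the other group except embryo 3, which had 2.85 FPKM. Its log2 difference was 0.31 (95% interval -0.26 to 0.87), and 0.08 without embryo 3. Igf1r, the receptor of insulin-like growth factors, stood at 25.6, 28.6, 25.5 and 33.0 FPKM in embryos 2, 4, 6 and 9. It was 8.64 FPKM in embryo 3 and 25.1 to 29.9 FPKM in the rest of the other group, a log2 difference of 0.29 (95% interval -0.35 to 0.93), and 0.03 without embryo 3. The high embryos and the others overlapped for both receptors.

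Downstream, Irs1, the docking protein of the receptors, had the smallest p of the list, at 6.16, 7.02, 7.24 and 8.54 FPKM in embryos 2, 4, 6 and 9 against 4.33 to 6.90 FPKM (log2 difference 0.24, 95% interval -0.05 to 0.52, limma adjusted p = 0.946). Rictor, a subunit of the second mTOR complex, had a log2 difference of 0.29 (95% interval -0.11 to 0.68). Tsc1, an inhibitor of mTOR, had 0.24 (-0.17 to 0.65). Mtor stood at 6.97, 10.2, 9.56 and 6.33 FPKM in embryos 2, 4, 6 and 9 and at 4.54 to 9.75 FPKM in the others (log2 difference 0.18, 95% interval -0.23 to 0.58). The adaptors of the same family as Grb10 were low throughout: Grb7 was 4.41 to 8.21 FPKM in the high and 4.70 to 6.44 FPKM in the other group, and Grb14 1.38 to 3.16 and 1.3 to 2.46 FPKM.

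**Figure D4:**
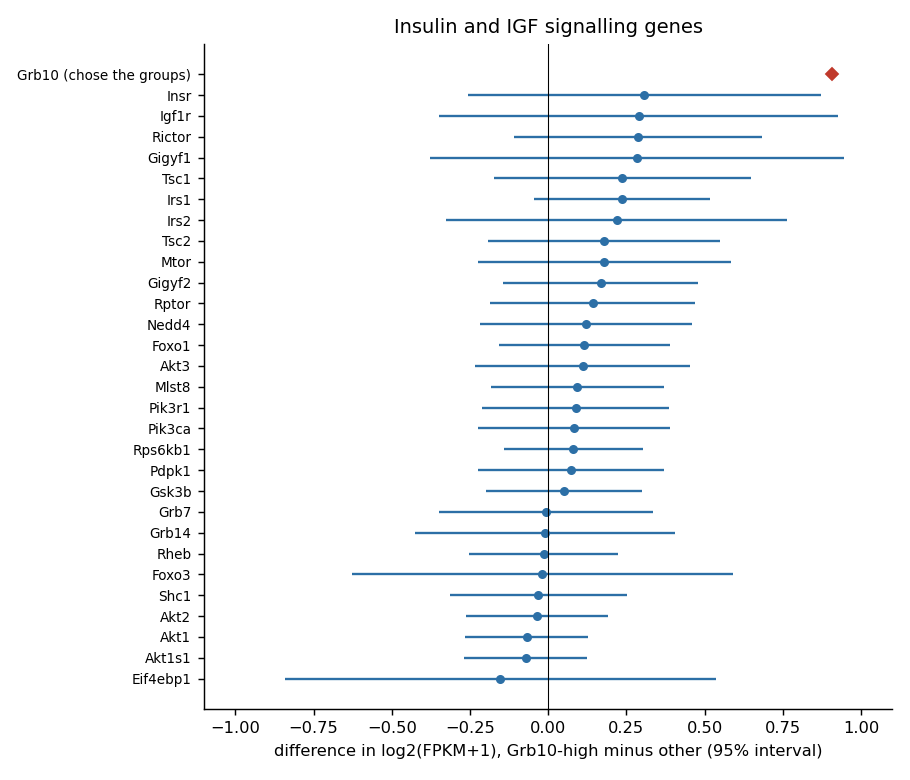
Difference in log2(FPKM+1) between Grb10-high and other xHomo embryos (horizontal axis) for 29 of the 30 insulin and IGF signalling genes, each with its 95% limma interval; the red diamond is Grb10, which chose the groups and has no interval. Each of the 29 intervals includes 0, and the differences run from -0.15 to 0.31.

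Of the ligands and binding proteins of the same pathway 8 of 10 passed the filter, 7 above and 1 below 0 with a median of 0.12, which was 0.02 without embryo 3 and -0.14 at the threshold of 0.75. Igf1, a growth factor ligand, had an unadjusted p under 0.05. It stood at 3.17, 4.52, 4.70 and 4.94 FPKM in embryos 2, 4, 6 and 9, and at 3.41, 2.92, 4.68, 2.29, 3.05 and 2.76 FPKM in embryos 1, 3, 5, 7, 8 and 10 (log2 difference 0.36, SE 0.16, limma adjusted p = 0.946). Embryo 5 of the other group lay among the high ones, and embryo 2 of the high group among the others. Igf2, the main growth factor of the embryo and imprinted itself, stood at 423 to 540 FPKM against 312 to 518 FPKM (log2 difference 0.13, 95% interval -0.21 to 0.47). The binding protein genes Igfbp5 and Igfbp4 had log2 differences of 0.31 and 0.20 (95% intervals -0.26 to 0.89 and -0.23 to 0.62).

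Other imprinted genes were examined as 22 tested of 28 genes listed as expressed from the paternal copy and 25 tested of 35 listed as expressed from the maternal copy, Grb10 excluded. None passed. Median differences were 0.12 and 0.04 log2 units, with 15 above and 7 below 0, and 16 above and 9 below 0. Without embryo 3 the medians were 0.02 and -0.06, and with median-of-ratios scaling they were 0.05 and -0.02.

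No imprinted gene departed by 1 log2 unit or more from the xHet mean in all 4 high embryos. Airn departed upward in embryos 2, 4 and 9, and at 7.42 FPKM in embryo 6 it lay just short of that limit. It also departed upward in embryo 10 of the other group, at 12.4 FPKM. Of the high embryos only embryo 9 lay above the xHet range of Airn, and that range includes a listed 0. The remaining departing genes of the high group differed from embryo to embryo. In embryo 2 the only such gene was Airn, at 8.80 FPKM, a value within the xHet range of 0 to 11 FPKM. In embryo 6 it was Phlda2, a placental growth restraint, at 2.39 FPKM against 4.97 to 9.09 FPKM in xHet. Embryo 4 had Peg3, a zinc finger gene, at 0.05 FPKM against 29.7 to 32.6 FPKM, together with its neighbour Zim1 at 10.2 FPKM against 2.89 to 3.98 FPKM, and Airn at 8.22 FPKM. Embryo 9 had 5 such genes: Peg10 at 0.01 FPKM, Sgce at 1.23 FPKM, Mest at 296 FPKM, Magel2 at 1.16 FPKM and Airn at 24.7 FPKM. The other 6 embryos had 2 to 12 such genes, the most in embryo 3. Each count is of 47 imprinted genes tested. Over all autosomal genes tested, 9.93% departed this far in embryo 3 and 4.30% in embryo 9. In the remaining xHomo embryos 1.16% to 2.03% did.

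Imprinted genes near 0 in single xHomo embryos were found in both groups. Peg10, a gene of retrotransposon origin, stood at 114, 119, 126 and 0.01 FPKM in embryos 2, 4, 6 and 9. It was 0.03, 66.8, 126.9, 0.01, 0.05 and 4.19 FPKM in embryos 1, 3, 5, 7, 8 and 10, so it was near 0 or low in 1 of 4 high and 4 of 6 other embryos (log2 difference 2.59, 95% interval -1.34 to 6.52). Meg3, a noncoding RNA, stood at 152 to 419 FPKM in the high embryos and at 0.69 FPKM in embryo 7 and 75.6 to 282 FPKM in the rest of the other group. Nnat, which encodes neuronatin, stood at 268 to 480 FPKM in the high embryos and at 27.3 FPKM in embryo 5 and 273 to 406 FPKM in the rest of the others. Peg3 was near 0 in embryo 4 and 33.2 to 49.2 FPKM in the other high embryos, against 4.99 to 55.1 FPKM.

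Among the paternally expressed genes Airn, the antisense RNA across Igf2r, had the smallest p. It stood at 8.80, 8.22, 7.42 and 24.7 FPKM in embryos 2, 4, 6 and 9, and at 0.13, 3.30, 6.22, 0, 5.71 and 12.4 FPKM in embryos 1, 3, 5, 7, 8 and 10 (log2 difference 1.63, 95% interval 0.08 to 3.18, limma adjusted p = 0.946). The entry of embryo 7 is a listed 0. The xHet embryos were at 5.38, 11 and 0 FPKM, so Airn also varied among them, and fragments of Airn and Igf2r may have been shared since strand use is not stated. Igf2r, listed at the same locus, was highest where Airn was 0, at 119 FPKM in xHet embryo 3 and 110 FPKM in xHomo embryo 7. It was lowest, at 17.8 FPKM, in xHomo embryo 3, where Airn was 3.30 FPKM. Sharing of fragments was not tested. Impact, a regulator of translation, stood at 14.2 to 19.4 FPKM in the high embryos and at 4.94 to 16.4 FPKM in the others (log2 difference 0.71, 95% interval -0.03 to 1.44). Mkrn3, a ubiquitin ligase, and Plagl1, a zinc finger regulator of growth genes, had log2 differences of 0.25 and 0.22.

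Of the maternally expressed genes, Cdkn1c, which halts cyclin-dependent kinases, was measured at 69.1, 110, 101 and 86.6 FPKM in embryos 2, 4, 6 and 9 and at 87.9 to 192 FPKM in the others (log2 difference -0.33, 95% interval -0.78 to 0.12). The highest value was that of embryo 3. H19, a noncoding RNA beside Igf2, stood at 494 to 795 FPKM against 511 to 804 FPKM (log2 difference -0.21, 95% interval -0.58 to 0.16). Commd1, a gene with an imprinted neighbour inside it, had -0.23 and Ube3a, a ubiquitin ligase, 0.21, with intervals that include 0. For 0 of the 47 imprinted genes tested were the groups free of overlap, against 0.253% above and 0.204% below over all autosomal genes. With shares so small, a count of 0 among 47 says little about imprinted genes.

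Red blood cell genes were lower in value in the high group, though without a call. All 15 autosomal genes of this list that passed the filter were below 0, with a median of -0.33, where 36.6% of all genes were below 0. Leaving out embryo 3 gave -0.49, and 13 to 15 of the 15 stayed below 0 whichever embryo was left out. Per embryo the list median, relative to the xHet mean, was 0.01, -0.56, -0.68 and 0.10 log2 units in embryos 2, 4, 6 and 9, and -0.27 to 0.40 in the others. So 2 of 4 high embryos were low, and the other two lay at the xHet level. In bulk RNA fewer red cells and less RNA per red cell cannot be told apart.

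Klf1, the transcription factor that activates globin genes (chromosome 8, 87425827 to 87429194), had the smallest p of the list. It stood at 4.0, 1.92, 2.0 and 2.5 FPKM in embryos 2, 4, 6 and 9, and at 4.68, 3.75, 4.32, 4.90, 3.48 and 3.94 FPKM in embryos 1, 3, 5, 7, 8 and 10 (log2 difference -0.55, SE 0.16, limma adjusted p = 0.946). Embryos 4, 6 and 9 lay below all of the others and below the xHet embryos, at 3.13 to 3.48 FPKM, while embryo 2 overlapped. Hbb-bh1, an embryonic beta globin, stood at 2616, 1098, 1400 and 2853 FPKM in embryos 2, 4, 6 and 9, and at 2104 to 3569 FPKM in the others and 2527 to 2601 FPKM in xHet (log2 difference -0.59, 95% interval -1.22 to 0.04). Only embryos 4 and 6 were below every other embryo. Hba-a1, an alpha globin with a near-identical copy, stood at 1414, 1023, 1008 and 2250 FPKM in the high embryos and at 1602 to 2659 FPKM in the others (log2 difference -0.61, 95% interval -1.15 to -0.07). Epb4.2, a protein of the red cell membrane, had a log2 difference of -0.33.

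Genes of glycolysis and the hypoxia response had 20 of 23 members below 0 with a median of -0.30, and embryo 9 stood apart from the rest of its group. The list median was 0.0039, -0.01, 0.06 and 1.49 log2 units from the xHet mean in embryos 2, 4, 6 and 9. In embryos 1, 3, 5, 7, 8 and 10 it was 0.55, -0.21, 0.21, 1.11, 1.24 and 0.96. Embryos 2, 4 and 6 were thus at the xHet level, while embryo 9 had the highest value of all embryos. Without embryo 9 the list median was -0.64, and without embryo 2 it was -0.09.

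Tpi1, triosephosphate isomerase, shows this arrangement at 234, 225, 237 and 589 FPKM in embryos 2, 4, 6 and 9, against 404, 250, 292, 543, 619 and 508 FPKM in embryos 1, 3, 5, 7, 8 and 10 and 219.8 to 290.2 FPKM in xHet (log2 difference -0.50, 95% interval -1.21 to 0.22). Ldha, lactate dehydrogenase A, stood at 877, 746, 875 and 1665 FPKM in the high embryos and 791 to 1762 FPKM in the others. Higd1a, a mitochondrial protein induced by hypoxia, had a log2 difference of -0.52 (95% interval -1.26 to 0.21). Eno1, the glycolytic enolase, stood at 111, 181, 168 and 165 FPKM in the high embryos and at 163 to 279 FPKM in the others (log2 difference -0.39, limma adjusted p = 0.946); near-identical copies in the genome make its value uncertain.

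Replication-dependent histone genes, most of whose messages lack a poly(A) tail, and ribosomal protein genes lay on the same side. Of the histone genes 19 of 20 were below 0, with a median of -0.21, and the list median per embryo exceeded the xHet mean by 0.10 to 0.76 log2 units in the high group and by 0.20 to 1.17 in the others. Without embryo 2 the histone median was -0.08, without embryo 1 it was -0.12 with 7 above and 13 below 0, without embryo 3 it was -0.31 and without embryo 9 it was -0.34. Hist1h3e stood at 1.47 to 4.42 FPKM against 3.81 to 8.17 FPKM, and Hist1h1d at 0.655 ± 0.390 (SD, n = 4) against 1.32 ± 0.592 FPKM (SD, n = 6). Of the ribosomal protein genes 35 of 36 were below 0 with a median of -0.16, again with embryo 9 highest of all at 0.89 log2 units above xHet and the other high embryos at -0.12 to 0.19. Rps2 stood at 1918, 1821, 1888 and 2888 FPKM in embryos 2, 4, 6 and 9 and at 2138 to 2723 FPKM in the others, and Rpl30 had a log2 difference of -0.33. Without embryo 9 the ribosomal median was -0.37, and without embryo 4 it was -0.03. Genes of both lists have near-identical copies, so their values are uncertain.

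**Figure D5:**
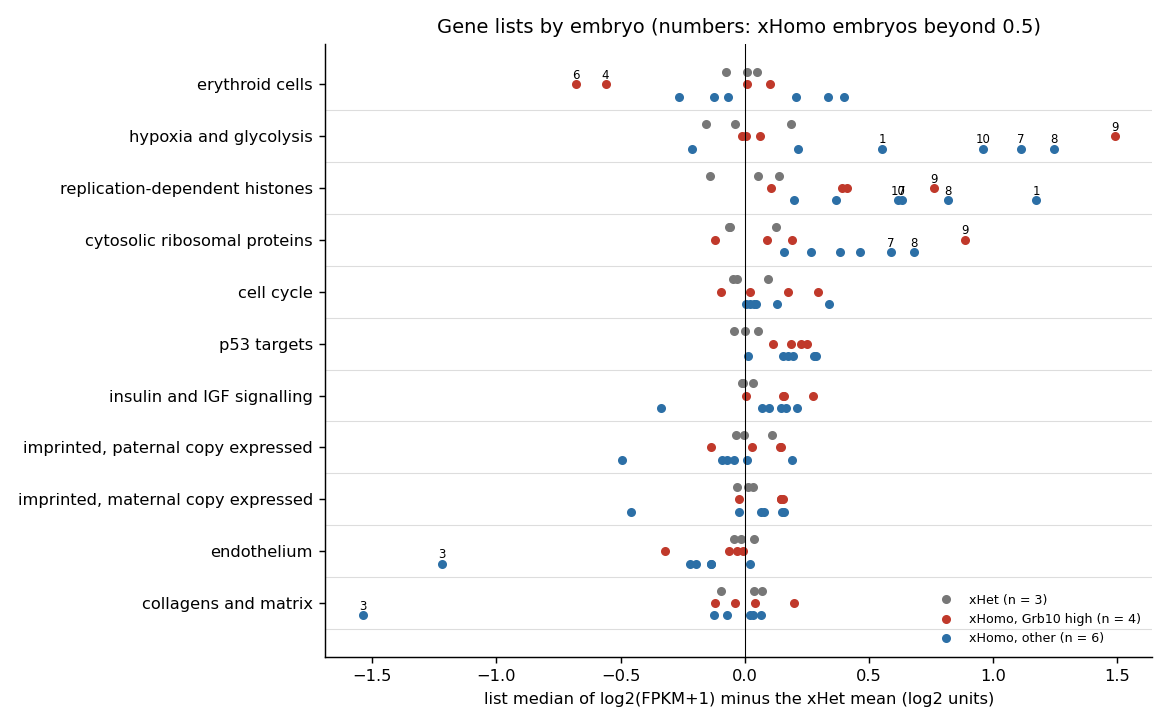
Median over each gene list of log2(FPKM+1) minus the xHet mean (horizontal axis, log2 units) for 11 lists; grey points are xHet, red Grb10-high and blue other xHomo embryos, and numbers mark xHomo embryos beyond 0.5. Embryos 4 and 6 are lowest for red cell genes, embryo 9 is highest for glycolysis, and embryo 3 is lowest for endothelium and collagens.

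On the opposite side stood lists that embryo 3 decides. Collagen and matrix genes were above 0 in 18 of 18 members with a median of 0.28, and in embryo 3 the list lay -1.54 log2 units from the xHet mean. Without embryo 3 the median was 0.03, with 13 above and 5 below 0, and with embryo 3 counted as high, at a Grb10 threshold of 0.75, it was -0.26. Col5a2 stood at 14.8 to 22.2 FPKM in the high embryos and at 7.37 to 18.4 FPKM in the others, and Fbn2, fibrillin 2, at 33.7 to 48.8 and 12.6 to 46.6 FPKM. Endothelial genes were above 0 in 14 of 15 members with a median of 0.20, and it was 0.04 without embryo 3 and -0.19 at the threshold of 0.75. Cdh5, the cadherin of endothelial junctions, stood at 12.3 FPKM in embryo 3, at 25.8 to 30.8 FPKM in the rest of the other group and at 26.5 to 36.5 FPKM in the high embryos. Robo4, an endothelial guidance receptor, had a log2 difference of 0.33 (95% interval -0.10 to 0.77).

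Cell cycle and p53 lists had counts that moved with the scaling and with single embryos. Of 28 cell cycle genes 13 were above and 15 below 0 with a median of -0.01, and 28 of 28 intervals lay within 1 log2 unit of 0. With median-of-ratios scaling 4 were above and 24 below 0 with a median of -0.08, where the median of all genes was -0.01. Without embryo 6 the counts were 5 and 23, and without embryo 9 they were 19 and 9. Ccnd3, cyclin D3, stood at 57.9 to 74.3 FPKM in the high and 65.9 to 80.0 FPKM in the other embryos (log2 difference -0.18, 95% interval -0.40 to 0.04). Ccnb2, cyclin B2, had -0.13 (-0.36 to 0.09). Of 17 genes induced by p53, 13 were above and 4 below 0 with a median of 0.05. Without embryo 3 the counts were 9 and 8 with a median of 0.02, and with median-of-ratios scaling 7 and 10 with a median of -0.01. Phlda3, an inhibitor of the kinase Akt, stood at 4.38 to 6.65 FPKM against 5.99 to 7.37 FPKM (log2 difference -0.26), and Fas, a death receptor, at 1.08 to 1.95 FPKM against 0.44 to 1.47 FPKM (log2 difference 0.39), each with a limma adjusted p of 0.946.

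The 15 further lists with at least 5 tested members, covering Hox genes, heterochronic genes, neurons and progenitors, somites, neural crest, limb buds, heart, liver bud, germ cells, respiratory chain, stress and immediate early genes, had medians from -0.09 to 0.17. None of their genes passed, as none did over all autosomal genes. Some of these lists were one-sided too: 14 of 15 anterior Hox genes were above 0, where 63.4% of all genes were. Of the respiratory chain genes 28 of 34 were below 0, against 36.6% of all genes. Without embryo 3 the anterior Hox counts were 10 above and 5 below 0, and those of the respiratory chain 4 and 30. Cd68, the only macrophage marker above the filter and chosen here after its values were seen, was the single tested member of any list whose groups did not overlap. Below the filter, the groups also did not overlap for Slc22a2, an imprinted transporter gene, at 0.03 to 0.19 FPKM in the high and 0 to 0.02 FPKM in the other embryos. Cd68 stood at 4.90 to 5.73 FPKM in the high embryos, at 2.20 to 4.72 FPKM in the others and at 4.45 to 7.36 FPKM in xHet (log2 difference 0.42, limma adjusted p = 0.946).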

How the data were processed

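Per the labels' protocols, total RNA of each embryo was column-purified with DNase treatment, and directional libraries were made after poly(A) selection. The authors deposited FPKM values per gene and embryo with loci on mm9, and the tools were TopHat, Cufflinks and bcl2fastq 1.8.2, per the submitters' processing notes. For TopHat and Cufflinks the versions, and in general the annotation, filters and strand use, were not stated in the sources used here. FPKM holds no counts, so depth is unknown, and a listed 0 can be a failed estimate.

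Embryos were split by the Grb10 rule (at least 1 log2 unit above the xHet mean). Genes with a mean of at least 1 FPKM over the 10 xHomo embryos, Grb10 excluded, were compared on log2(FPKM+1), 12724 in all, with limma 3.58.1 in R 4.3.3 (eBayes with a trend, two-sided, no covariates, Benjamini-Hochberg at 0.05). Differences on that scale understate those of low genes. The 456 genes on X and Y stayed in the fit and out of the results. The step was tested on simulated data. Locus starts in the table count from 0 (7169 of 20639 matched genes had the length this gives, 455 the alternative) and are printed from 1. The members, the 30 gene lists and the comparison were chosen with earlier results of these data known. Groups drawn from a measured gene are not independent of the libraries, and a p-value here describes association with the split. Genes named are Grb10, its neighbours within 1 Mb, the 6 with the smallest p per direction without small RNA genes (none passed), in each of 12 described lists at most 4 genes by smallest p, and Peg10, Peg3, Meg3, Nnat, Xist, Ddx3y and Eif2s3y. Insr, Igf1r, Igf2r, Mtor, Grb7, Grb14, Cd68 and Slc22a2 were added with their values in view. So were neighbours under the filter, markers at or near 0, and Sgce, Zim1, Mest, Magel2 and Phlda2. 1 gene of the insulin and IGF signalling list that the rule names is not reported here. Alternatives are in the closing section. Tables and plots were made with pandas 2.3.3, numpy 2.4.6 and matplotlib 3.10.9 under Python 3.11.15.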

Additional observations from a re-analysis of the deposited data

Results flagged for a closer look

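Within the groups of 4 and 6, single embryos lay far from their nearest neighbour (Dixon's test on the log2 scale) in 22 of 116 groups of named genes. Chance flags about 1 in 20 groups, but these genes include some named for known departures of single embryos or added with values in view, so the count cannot be set against that rate. Of these, 10 were embryo 3 in the other group. Its values were 4.33 FPKM for Irs1, 2.93 for Rictor, 3.23 for Tsc1, 49.4 for Igfbp5, 2.85 for Insr, 8.64 for Igf1r, 12.6 for Fbn2, 12.3 for Cdh5 and 2.20 for Cd68, each the lowest of its group, and 192 for Cdkn1c, the highest. In the same group embryo 1 stood out for Mkrn3 (2.32 FPKM, high) and H19 (511 FPKM, low), embryo 7 for Meg3 (0.69 FPKM) and embryo 5 for Nnat (27.3 FPKM).

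In the high group embryo 9 stood out 4 times, with Airn at 24.7, Tpi1 at 589 and Rps2 at 2888 FPKM above the rest and Peg10 at 0.01 FPKM below. Embryo 2, the one nearest the Grb10 threshold, stood out for Pklr (4.59 FPKM, high), 1700120C14Rik (0.38 FPKM, low) and Hist1h3e (1.47 FPKM, low), and embryo 4 for Peg3 (0.05 FPKM). Their causes were not tested.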

How the results depend on the processing

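The count of 0 genes passing held in 24 of 28 alternatives. With Grb10 as a continuous value 1 gene passed (Pklr). Without embryo 2, alone or together with embryo 3, 1 passed (Mir5113), and among embryos with Xist under 1 FPKM 2 passed (Snora30 and Snord72, in a fit of 2 against 3); these were named after their values were seen. Leaving out 1 embryo gave 0 to 1. At an unadjusted p under 0.05 the counts were 91 higher and 125 lower, and leaving out 1 embryo gave 63 to 363 and 63 to 486; the higher count moved by over 1.5 times without embryo 5 (363) or 9 (258), and the lower without embryo 1 (221), 3 (237), 7 (63), 8 (71) or 9 (486). They were 299 and 239 with no filter on low values, 152 and 262 with median-of-ratios scaling, 182 and 274 with quantile normalization, and 1261 and 1065 with array weights, where 0 passed after adjustment. The higher count alone moved to 45 at a mean FPKM of at least 5, 151 with TPM rescaling, 28 with continuous Grb10 and 167 without embryos 2 and 3. It was 138 without embryo 3 and with median-of-ratios scaling (262 lower) and 14 at a Grb10 threshold of 0.75 (225 lower), and among embryos with Xist under 1 FPKM 223 were lower. The alternatives that leave out embryos 2 and 3 together, combine embryo 3 with a scaling, or keep Xist under 1 FPKM were added after seeing the data.

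Of 58 named genes 42 kept the sign of their difference in each alternative that gave a value, 17 genes having none at a mean FPKM of at least 5. At the threshold of 0.75, which moves embryo 3 to the high group, the sign turned for Rictor (-0.0549), Tsc1 (-0.0822), Igfbp5 (-0.18), Igfbp4 (-0.0631), Igf2 (-0.10), Plagl1 (-0.0057), Cdkn1c (0.0387), Rpl30 (0.0407), Fbn2 (-0.15), Cdh5 (-0.11), Insr (-0.20), Igf1r (-0.29) and Mtor (-0.0733). Among embryos with Xist under 1 FPKM it turned for Cdkn1c (0.0476), Rpl30 (0.0328), Insr (-0.0078) and Meg3 (-0.30). It turned for Igf1r with array weights (-0.0314) and continuous Grb10 (-0.0435), and for Fignl1 with array weights (0.0372). Leaving out 1 embryo gave -1.26 to 0.60 for Peg3, above 0 only without embryo 4, and -0.107 to 0.0602 for Fignl1, above 0 without embryo 5 or 9. The causes were not tested. Of the 12 list medians, 8 turned sign in some alternative. At the threshold of 0.75 these were insulin and IGF signalling (-0.0787), IGF ligands (-0.1413), both imprinted lists (-0.0757 and -0.112), collagens (-0.2559), endothelium (-0.1867) and p53 targets (-0.0218). The cell cycle list, near 0, turned in 8 other alternatives, up to 0.0949 with array weights. The maternal imprinted list also turned with median-of-ratios scaling, with quantile normalization and without embryo 3 (-0.0628). It turned too without embryos 2 and 3, without embryo 3 under that scaling, and with Xist under 1 FPKM. Endothelium also turned with array weights, continuous Grb10 (-0.0841), without embryos 2 and 3, and with Xist under 1 FPKM. Collagens also turned with continuous Grb10, IGF ligands with Xist under 1 FPKM, and p53 targets with both scalings. The red cell, glycolysis, histone and ribosomal medians stayed below 0 in all alternatives run. No paired analysis was possible because each xHomo number occurs in only 1 of the groups compared. The number of embryos limits the precision, and for low genes the unknown depth does.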
